A study of Mus musculus with 12 samples.

Results

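The genes for the transcriptional coactivators YAP (Yap1) and TAZ (Wwtr1) were followed across 12 RNA-seq libraries of C22 cells. With them went the genes for their DNA-binding partners TEAD1 to TEAD4 (Tead1, Tead2, Tead3 and Tead4) and 4 known YAP/TAZ targets. These targets were Ankrd1, Amotl2, Ajuba and Lats2, of which Amotl2, Ajuba and Lats2 also act in or around the Hippo pathway. These 10 genes were taken by symbol from the 23282 genes in the count tables, and all 10 were among the 12425 genes abundant enough to be tested. They were chosen with earlier results of these data known. C22 cells are a cloned mouse club cell line from H-2Kb-tsA58 transgenic mice, which carry a temperature-sensitive immortalizing gene, and the labels describe the cells used here as differentiated. Each of 4 groups had 3 libraries. NC is the negative control, siPdcd5 is Pdcd5 knockdown by siRNA, and NC + TGF-β1 and siPdcd5 + TGF-β1 are the same cells after serum starvation for 2 h and then 20 ng/ml TGF-β1 over 24 h. If the untreated groups were not serum starved as well, starvation and TGF-β1 cannot be told apart in the comparisons after TGF-β1. All 4 groups share the clone and its transgene, and nothing in the labels says that replicates came from separate cultures, so the p values measure the spread between these libraries.

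YAP and TAZ have no DNA-binding domain of their own and act in the nucleus by binding TEAD factors, which recognize short promoter and enhancer sequences. The Hippo pathway restrains them: the kinases LATS1 and LATS2 phosphorylate YAP and TAZ, which are then held in the cytoplasm or degraded. This control lies largely on the proteins, which an RNA measurement does not see. In the lung, YAP and TAZ are known for roles in airway epithelial differentiation, in repair after injury and in fibrosis, where they meet TGF-β signalling, which acts through SMAD factors.

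The motif that TEAD factors recognize, CATTCC or GGAATG on the other strand, was searched on both strands of the 250 bases before each RefSeq start site (build GRCm38.p6, same coordinates as mm10). RefSeq entries were at hand for 8 of the 10 genes, and 6 of these 8 held the motif in at least 1 window (Yap1, Wwtr1, Tead3, Ankrd1, Amotl2 and Ajuba), whereas 14.36% of 27025 genes in the same table did. Tead2 and Lats2 had windows without it, which says only that these letters are not there. The promoters of the genes on which the results below turn are shown because they carry the motif, with the motif in capitals and the sequence 5′ to 3′ on the strand of the gene. For Ankrd1 and Amotl2, whose windows overlap annotated untranslated exon sequence, the sites are given with 12 bases on each side (chr19:36120037-36120066 and chr19:36119950-36119979, minus strand, and chr9:102717727-102717756, plus strand). For Ajuba (chr14:54577662-54577911, minus strand) and Wwtr1 (chr3:57575911-57576160, minus strand) the full 250 bases are given. Wwtr1 had 2 RefSeq starts, 57575910 and 57575876. The window of the first is shown, and the same motif lies 170 bases before the second.
Ankrd1, motif 210 bases before the start: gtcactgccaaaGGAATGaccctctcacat
Ankrd1, motif 123 bases before the start: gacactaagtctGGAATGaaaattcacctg
Amotl2, motif 65 bases before the start: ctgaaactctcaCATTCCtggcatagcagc
Ajuba, motifs 186 and 164 bases before the start: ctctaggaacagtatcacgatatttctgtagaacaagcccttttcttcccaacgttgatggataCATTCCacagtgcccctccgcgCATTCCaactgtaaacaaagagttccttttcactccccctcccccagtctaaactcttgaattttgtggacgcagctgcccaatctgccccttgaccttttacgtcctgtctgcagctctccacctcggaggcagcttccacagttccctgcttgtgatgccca
Wwtr1, motif 136 bases before the start: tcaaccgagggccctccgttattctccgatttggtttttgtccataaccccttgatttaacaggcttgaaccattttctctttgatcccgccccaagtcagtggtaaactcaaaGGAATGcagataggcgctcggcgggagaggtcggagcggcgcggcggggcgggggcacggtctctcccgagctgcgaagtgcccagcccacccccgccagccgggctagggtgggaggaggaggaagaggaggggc

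In the GENCODE annotation of GRCm38, Ankrd1 lies at chr19:36111961-36120099, Ajuba at chr14:54567472-54577558, Wwtr1 at chr3:57455649-57575910 and Yap1 at chr9:7931999-8004596, all on the minus strand, and Tead1 at chr7:112679318-112906807 and Amotl2 at chr9:102716672-102733418 on the plus strand. The RefSeq start used for Ajuba, 54577661, lies upstream of its GENCODE start, 54577558, and no GENCODE transcript held the bases after it. The distances of its motifs therefore hold for the RefSeq start only. Those of Ankrd1 and Amotl2 do too, since their RefSeq starts, 36119844 and 102717804, lie inside the GENCODE span of the gene. The motifs of Ankrd1 and Amotl2 lie within annotated untranslated exon sequence of GENCODE transcripts. Both motifs of Ajuba lay within the same stretch and read CATTCC on the strand of the gene, whereas both of Ankrd1 and that of Wwtr1 read GGAATG. Neither the AP-1 motif TGANTCA nor the SMAD palindrome GTCTAGAC was found in any window of the 8 genes, and these were present in 7.82% and 0.2% of genes of the table. The shorter SMAD site CAGAC, also read on both strands and held by 45.8% of genes, was found in 3 of the 8 genes, Yap1, Ankrd1 and Ajuba, and 1 copy in Ankrd1 shared a base with the TEAD motif 123 bases before the start. These matches describe the letters only, and no binding was measured here.

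Each library held 12809857 to 17714828 counts on genes, at which 3 counts correspond to 0.165 to 0.239 CPM (counts per 1000000 counts, scaled by TMM factors). These limits cover counting error only. Pdcd5 itself, the targeted gene, lay between 65.1 and 73.5 CPM in all 6 NC libraries, with and without TGF-β1, and between 20.0 and 26.3 CPM in all 6 knockdown libraries, as labelled. The club cell identity was not seen in the RNA: of 6 club cell markers, 4 had at most 3 counts in every library, among them Scgb1a1, Cyp2f2 and Nkx2-1, Scgb3a1 had at most 5, and only Foxa2 was expressed, at 49.1 to 213 CPM. Foxa2 was at 161 to 183 CPM in NC and 49.1 to 52.2 CPM in NC + TGF-β1. It was at 196 to 213 CPM in siPdcd5 and 66.5 to 76.6 CPM in siPdcd5 + TGF-β1, and its part in the results below was not tested. Of 8 fibroblast and smooth muscle markers, Myh11 and Des were near 0, whereas Col1a1, Col3a1 and Acta2 were abundant. The summed level of these 8 was 4243 to 4439 CPM in NC, 8888 to 9540 in NC + TGF-β1, 2719 to 3216 in siPdcd5 and 6349 to 6732 in siPdcd5 + TGF-β1, so it moved with the same conditions as the results below, and its part in them was not tested. Col1a1, Col3a1 and Acta2 carry this sum, and the less abundant markers did not all follow it in every comparison. Col1a2, a chain of type I collagen, was at 3.49 to 3.65 CPM in NC and 9.79 to 15.1 CPM in siPdcd5, and rose after knockdown without TGF-β1 (log2 fold change 1.74, adjusted p = 6.3e-04 by edgeR with Benjamini-Hochberg adjustment), where the sum was lower. After TGF-β1 Col1a2 rose with the sum, by 2.78 in NC and by 1.72 in knockdown cells (adjusted p = 6.1e-07 and 1.8e-05 by edgeR with Benjamini-Hochberg adjustment). Pdgfra, a receptor of platelet-derived growth factor, was at 3.39 to 5.93 CPM over all libraries, and its differences after TGF-β1, where the sum was higher, were -0.35 in NC and -0.51 in knockdown cells on the log2 scale and did not pass. Pdgfrb, the other receptor gene of this growth factor, was at 11.3 to 40.7 CPM over all libraries. It rose with the sum after TGF-β1 in NC cells (0.98, adjusted p = 0.0070 by edgeR with Benjamini-Hochberg adjustment). Its differences of 0.48 after TGF-β1 in knockdown cells and 0.37 after knockdown without TGF-β1 did not pass. In such bulk RNA, fewer expressing cells and less RNA per cell cannot be told apart.

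Over all genes, 2 libraries stood apart from their group. The mean chi-square per gene between library pairs was 4.40 to 6.20 in NC, but 35.0 and 62.7 for the pairs of NC + TGF-β1 that include replicate 2, against 12.1 for the third pair, and 34.6 and 26.8 for the pairs of siPdcd5 that include replicate 1, against 10.2. Results that rest on these libraries are therefore also given without them for the 10 genes and for several named pathway genes. Leaving out libraries because they differ lowers the estimated spread, so that more genes pass the test.

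**Figure D1:**
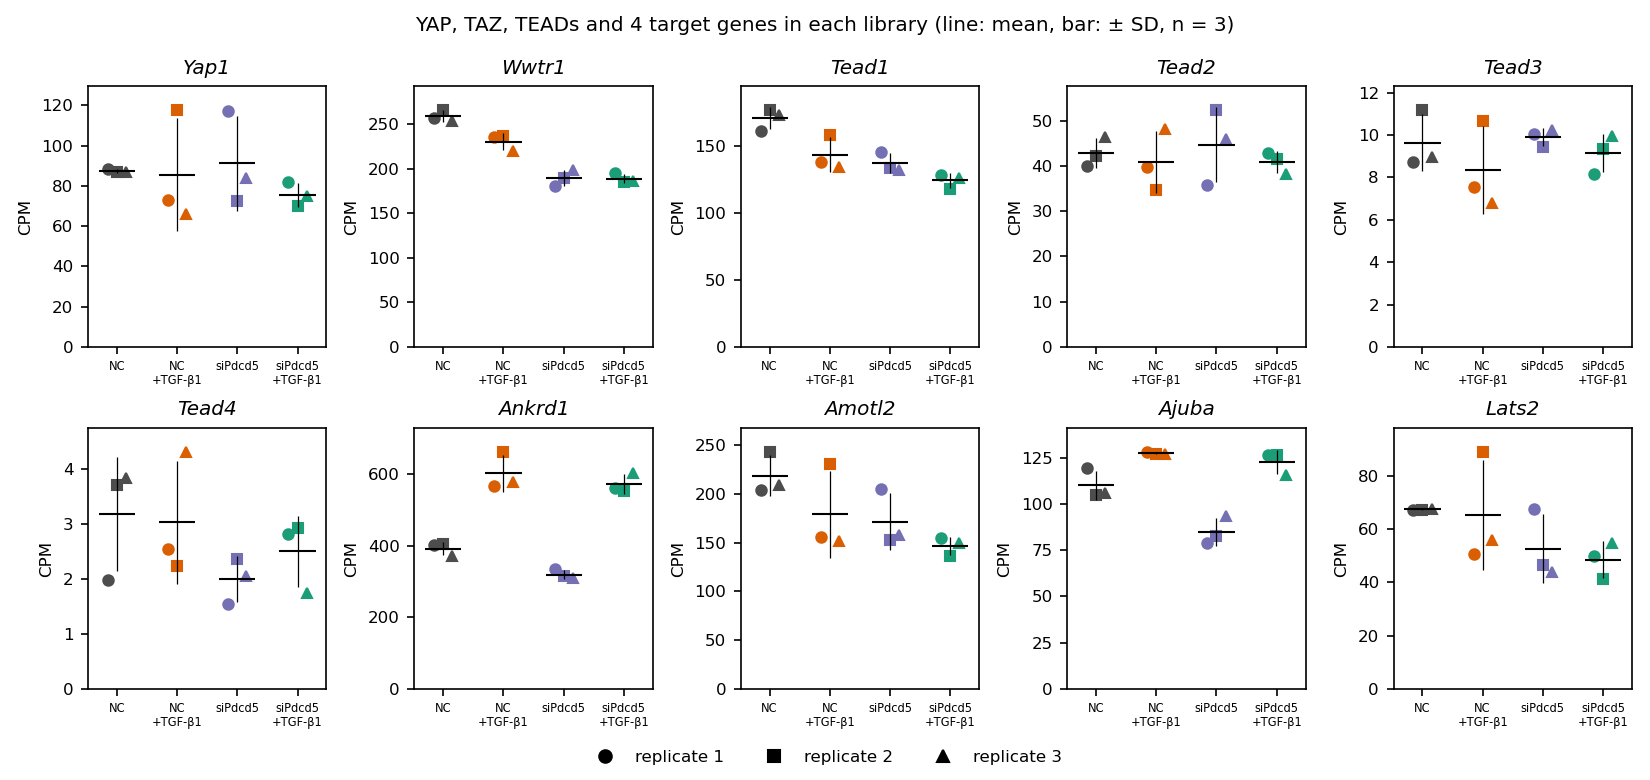
CPM (vertical axes, each from 0) of the 10 genes in each of the 12 libraries, by group (horizontal axes), with symbols for the replicate, a line for the group mean and a bar for ± SD (n = 3). Ankrd1 lay at 553 to 663 CPM in the 6 TGF-β1-treated libraries and at 309 to 404 CPM in the 6 others, and Wwtr1 at 180 to 198 CPM in the 6 knockdown libraries and at 219 to 266 CPM in the 6 others.

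The first question was whether these genes differed between NC + TGF-β1 and NC. Ankrd1 rose and was the only 1 of the 10 that passed the test in either direction, whereas 8.57% of all genes tested rose and 6.77% fell. Ankrd1 encodes a nuclear and sarcomeric ankyrin repeat protein and is among the most widely used YAP/TAZ target genes. It was at 402, 404 and 370 CPM in NC and at 568, 663 and 577 CPM in NC + TGF-β1. Every treated library was above every control library, and the difference was 0.62 on the log2 scale (standard error 0.09, 1.54-fold, adjusted p = 1.5e-04, from the quasi-likelihood test of edgeR and Benjamini-Hochberg adjustment).

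Ajuba encodes a LIM domain protein that binds LATS kinases and restrains their activity. Its level was 119, 105 and 106 CPM in NC and 128, 127 and 127 CPM in NC + TGF-β1. The groups did not overlap, but the difference of 0.21 on the log2 scale (95% interval 0.02 to 0.41) did not pass the test (adjusted p = 0.140 by edgeR with Benjamini-Hochberg adjustment).

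Of the other 8 genes, all had a log2 fold change below 0, and none passed. Tead1 was at 162, 177 and 174 CPM in NC and at 138, 158 and 134 CPM after TGF-β1, and Wwtr1 at 256, 266 and 253 and then at 235, 236 and 219 CPM. In both genes every treated library was below every control library. The log2 fold changes were -0.25 for Tead1 (adjusted p = 0.0738) and -0.17 for Wwtr1 (adjusted p = 0.177, both by edgeR with Benjamini-Hochberg adjustment). Tead1 passed by edgeR with upper-quartile factors (adjusted p = 0.0484), by DESeq2 (0.0352) and by limma after quantile normalization (0.0425, all with Benjamini-Hochberg adjustment). The median log2 fold change was -0.06 over the 10 genes and 0.00 over all genes tested.

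Yap1, Amotl2 and Lats2 were split within the NC + TGF-β1 group. Yap1 was at 88.5, 86.8 and 86.9 CPM in NC and at 72.8, 118 and 66.1 CPM after TGF-β1. Lats2 was at 67.2, 67.3 and 67.6 CPM in NC and at 50.7, 89.0 and 56.0 CPM after TGF-β1. Amotl2, which encodes an angiomotin family protein that holds YAP and TAZ in the cytoplasm, was at 204, 243 and 210 CPM and then at 156, 231 and 151 CPM. In all 3 genes replicate 2 of NC + TGF-β1 was the highest treated library and the other 2 were below every NC library. Without it, the log2 fold changes were -0.33 for Yap1, -0.34 for Lats2 and -0.51 for Amotl2, in place of -0.03, -0.05 and -0.29. Amotl2 (adjusted p = 0.0063) and Tead1 (adjusted p = 0.0141) then passed edgeR's test with Benjamini-Hochberg adjustment, which makes 3 of the 10 genes, while the number of all genes called went from 1906 to 2554. With siPdcd5 replicate 1 left out as well, 6 of the 10 genes passed, Ankrd1 higher and Yap1, Wwtr1, Tead1, Amotl2 and Lats2 lower, beside 3663 of all genes.

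**Figure D2:**
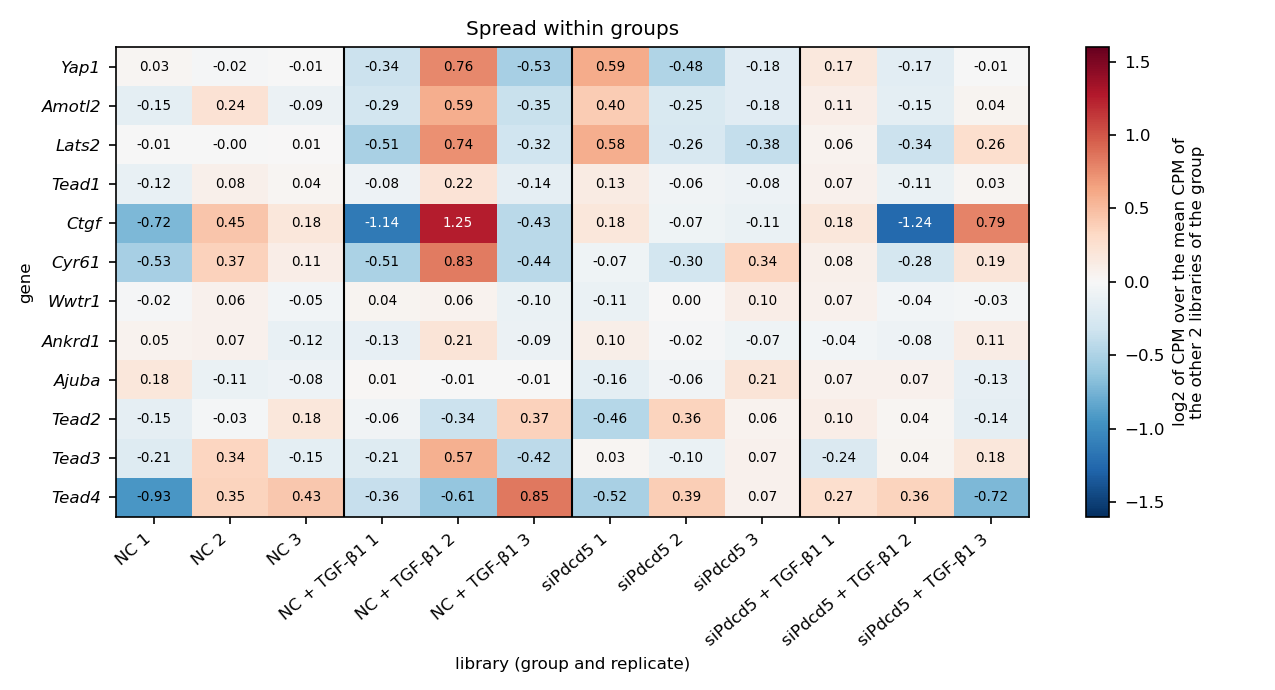
Log2 of the CPM of each gene (rows) in each library (columns) over the mean CPM of the other 2 libraries of its group, with red for higher and blue for lower. NC + TGF-β1 replicate 2 was 0.76 for Yap1, 0.59 for Amotl2 and 0.74 for Lats2, and siPdcd5 replicate 1 was 0.59, 0.40 and 0.58, whereas these libraries were at 0.06 and -0.11 for Wwtr1.

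The spread within groups was not the same for all 10 genes. In NC + TGF-β1 replicate 2, Yap1 was 1.70-fold, Lats2 1.67-fold and Amotl2 1.5-fold the mean of the other 2 libraries, and Ctgf, a further YAP/TAZ target, was 2.38-fold. In the same library Wwtr1, Ajuba and Tead1 were at 0.06, -0.01 and 0.22 of it on the log2 scale. Over all genes tested, 15.7% were at least 0.5 above and 14.4% at least 0.5 below the other 2 libraries on that scale. In siPdcd5 replicate 1, where 10.5% of all genes were that far above, Yap1 was 1.5-fold, Lats2 1.49-fold and Amotl2 1.32-fold the mean of the other 2, but Ctgf was 1.13-fold. Across the 12 libraries the log2 CPM of Amotl2 and Lats2 had a Pearson r of 0.89, Yap1 and Amotl2 0.77 and Yap1 and Lats2 0.75, and Tead1 and Amotl2 0.94, which describe libraries that share their groups and these deviations.

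In Pdcd5 knockdown cells TGF-β1 was followed by higher levels of Ankrd1 and Ajuba. These 2 of the 10 genes rose and none fell, beside 8.5% of all genes that rose and 7.61% that fell. Ankrd1 was at 334, 316 and 309 CPM in siPdcd5 and at 562, 553 and 604 CPM in siPdcd5 + TGF-β1. The groups were far apart, with a log2 fold change of 0.84 (standard error 0.09, 1.79-fold, adjusted p = 9.6e-06 by edgeR with Benjamini-Hochberg adjustment). Ajuba was at 78.6, 82.6 and 93.4 CPM in siPdcd5 and at 127, 127 and 115 CPM after TGF-β1. Again every treated library was above every untreated one, with a log2 fold change of 0.53 (standard error 0.09, 1.45-fold, adjusted p = 8.0e-04 by edgeR with Benjamini-Hochberg adjustment). Ankrd1 in both kinds of cells and Ajuba in knockdown cells passed in each of the 20 alternatives run.

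The coactivators and most TEAD genes overlapped between siPdcd5 and siPdcd5 + TGF-β1. Wwtr1 was at 180, 189 and 198 CPM without and at 195, 185 and 186 CPM with TGF-β1, a log2 fold change of -0.00 with a 95% interval from -0.17 to 0.16. Yap1 was at 117, 72.3 and 84.0 CPM without and at 81.8, 69.9 and 75.2 CPM with it. Without siPdcd5 replicate 1, the differences on the log2 scale were -0.04 for Yap1, -0.07 for Amotl2 and 0.11 for Lats2, in place of -0.27, -0.23 and -0.11. Only Tead1 was again separated, at 146, 134 and 133 CPM against 129, 118 and 126 CPM (log2 fold change -0.14, adjusted p = 0.311 by edgeR with Benjamini-Hochberg adjustment). The median log2 fold change was -0.11 over the 10 genes and -0.03 over all genes tested.

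**Figure D3:**
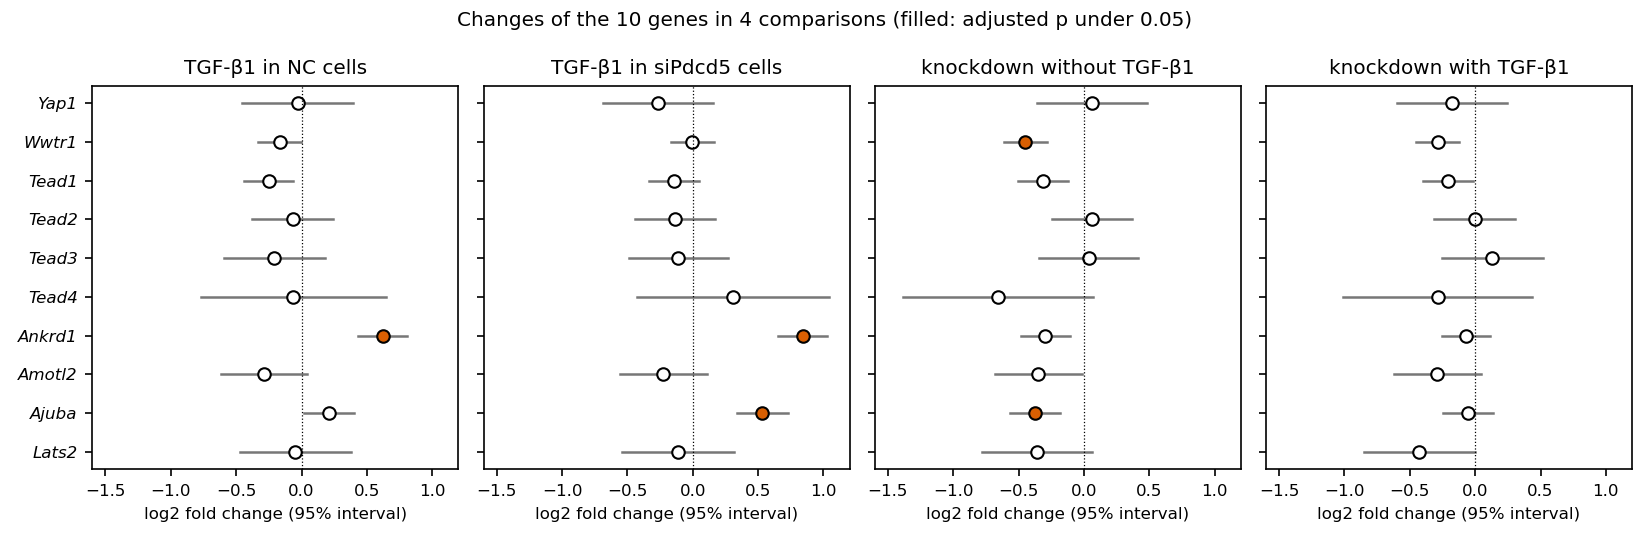
Log2 fold change (points) with its 95% interval (lines) for the 10 genes in 4 comparisons, from edgeR's quasi-likelihood fit to all 12 libraries. Filled points passed an adjusted p of 0.05: Ankrd1 after TGF-β1 in NC and in siPdcd5 cells, Ajuba after TGF-β1 in siPdcd5 cells, and Wwtr1 and Ajuba after knockdown without TGF-β1.

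Pdcd5 knockdown without TGF-β1 was followed by lower levels of TAZ and Ajuba RNA. Wwtr1 and Ajuba fell and none of the 10 genes rose, beside 2.54% of all genes that fell and 0.901% that rose. Wwtr1 was at 253 to 266 CPM in NC and at 180 to 198 CPM in siPdcd5, 258 ± 6.73 against 189 ± 9.25 CPM (mean ± SD, n = 3 each). No libraries overlapped, and the log2 fold change was -0.45 (standard error 0.08, adjusted p = 0.0041 by edgeR with Benjamini-Hochberg adjustment). This call held in all 20 alternatives, with log2 fold changes from -0.49 to -0.41. Ajuba, at 110 ± 8.06 CPM in NC and 84.8 ± 7.63 CPM in siPdcd5 (n = 3 each), was lower by 0.37 on the log2 scale (standard error 0.09, adjusted p = 0.0356 by edgeR with Benjamini-Hochberg adjustment). Its call was lost in 11 of the 20 alternatives, among them leaving out any 1 of the 3 NC libraries, NC + TGF-β1 replicate 1, siPdcd5 replicate 1 or 2 or any 1 of the 3 siPdcd5 + TGF-β1 libraries, with an adjusted p of 0.0545 to 0.175 in those 9, so that 1 of the 10 genes was called. The low level of Ajuba in the 3 siPdcd5 libraries enters both this comparison and its rise after TGF-β1 in knockdown cells.

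Yap1 was at 87.4 ± 0.966 CPM in NC and 91.2 ± 23.4 CPM in siPdcd5 (n = 3 each), and its log2 fold change of 0.06 had a 95% interval from -0.36 to 0.48. Tead1 and Ankrd1 were separated between the groups without passing the test. Tead1 was at 162 to 177 CPM in NC and 133 to 146 CPM in siPdcd5 (log2 fold change -0.31, adjusted p = 0.0731), and Ankrd1 at 370 to 404 and 309 to 334 CPM (log2 fold change -0.29, adjusted p = 0.0879, both by edgeR with Benjamini-Hochberg adjustment). By DESeq2 both passed (adjusted p = 0.0089 and 0.0109 with Benjamini-Hochberg adjustment), which made 4 of the 10 genes, and both also passed by edgeR without NC + TGF-β1 replicate 2 (adjusted p = 0.0244 and 0.0296), with 4 of the 10 genes called.

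Amotl2 was at 205, 153 and 158 CPM and Lats2 at 67.4, 46.5 and 43.9 CPM in siPdcd5. In both genes siPdcd5 replicate 1 lay within the range of the NC libraries and the other 2 below it. Their log2 fold changes were -0.35 and -0.36 and did not pass (adjusted p = 0.289 and 0.422 by edgeR with Benjamini-Hochberg adjustment). Without siPdcd5 replicate 1 they were -0.50 and -0.58 and still did not pass, and that of Yap1 was -0.17. With NC + TGF-β1 replicate 2 left out as well, they were -0.50 and -0.58, and 6 of the 10 genes passed in this comparison, all lower (Wwtr1, Tead1, Ankrd1, Amotl2, Ajuba and Lats2), beside 1146 of all genes in place of 427. The median log2 fold change in all 12 libraries was -0.33 over the 10 genes and 0.02 over all genes tested.

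In TGF-β1-treated cells none of the 10 genes passed the test between siPdcd5 + TGF-β1 and NC + TGF-β1, where 1.22% of all genes fell and 0.33% rose. At an unadjusted p under 0.05 there were 3 genes, Wwtr1, Tead1 and Lats2, and by DESeq2 1 passed, Wwtr1. Wwtr1 was at 235, 236 and 219 CPM in NC + TGF-β1 and at 195, 185 and 186 CPM in siPdcd5 + TGF-β1. All knockdown libraries were again below all control libraries, with a log2 fold change of -0.29 (95% interval -0.45 to -0.12, adjusted p = 0.0829 by edgeR and 0.00335 by DESeq2, both with Benjamini-Hochberg adjustment). Ankrd1, at 573 ± 27.0 against 603 ± 52.5 CPM, and Ajuba, at 123 ± 6.49 against 127 ± 0.696 CPM (n = 3 each), had log2 fold changes of -0.07 (95% interval -0.26 to 0.11) and -0.05 (95% interval -0.25 to 0.14). Without NC + TGF-β1 replicate 2, the log2 fold changes were 0.12 for Yap1, -0.07 for Amotl2 and -0.14 for Lats2, in place of -0.18, -0.29 and -0.43. Of the 10 genes, 9 had a log2 fold change below 0, with a median of -0.19 beside -0.02 over all genes tested.

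Whether TGF-β1 acted differently in knockdown and NC cells was asked of the interaction, in which 0 of the 10 genes passed and 0% of all 12425 genes did by edgeR. At an unadjusted p under 0.05 there were 638 genes, 1 of them among the 10, and DESeq2 called 15 of all genes. Ajuba had an interaction of 0.32 on the log2 scale (95% interval 0.05 to 0.59, adjusted p = 0.951 by edgeR with Benjamini-Hochberg adjustment) and Ankrd1 0.22 (95% interval -0.04 to 0.48). For Wwtr1 it was 0.16 (95% interval -0.07 to 0.39). Without both libraries that stood apart, 200 of all genes and none of the 10 passed.

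Set in order of the mean level, Wwtr1 was highest in NC (258 CPM), then in NC + TGF-β1 (230 ± 9.44 CPM), and lower in siPdcd5 and siPdcd5 + TGF-β1, which overlapped at 189 CPM each. Tead1 had the same order, 171, 144, 138 and 124 CPM, of which only NC + TGF-β1 and siPdcd5 overlapped. For Ankrd1 and Ajuba the order was NC + TGF-β1, siPdcd5 + TGF-β1, NC and siPdcd5. The 2 treated groups overlapped in Ankrd1, and siPdcd5 + TGF-β1 overlapped NC in Ajuba. Amotl2 (219, 180, 172 and 147 CPM) and Lats2 (67.4, 65.2, 52.6 and 48.5 CPM) had the order of Wwtr1, but all neighbours overlapped, as they did in Yap1 (91.2 in siPdcd5, 87.4 in NC, 85.6 in NC + TGF-β1 and 75.6 CPM in siPdcd5 + TGF-β1).

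The remaining TEAD genes showed no order beyond the spread. Tead2 was at 34.8 to 52.4 CPM, Tead3 at 6.80 to 11.2 CPM and Tead4 at 1.55 to 4.31 CPM over the 12 libraries, and every pair of neighbouring groups overlapped in each. Tead4 rested on 21 to 59 counts per library, and for knockdown without TGF-β1 its difference of -0.66 on the log2 scale had a 95% interval from -1.38 to 0.07.

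By likeness of log2 CPM over the 12 libraries, the genes most like Wwtr1 were Ppef1 and Ddit4l, with a Pearson r of 0.96 and 0.95. The closest to Ankrd1 were Polr2b and Igfbp7, at 0.99 for both, and the closest to Ajuba were Hspa5 and Fbn1, at 0.96 and 0.95. The points fall into the 4 groups, so that these values describe a shared pattern over the groups. Between the 10 genes themselves the r of Ankrd1 and Ajuba was 0.87 and that of Wwtr1 and Tead1 0.83, while Wwtr1 and Yap1 were at 0.14.

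Among 19 other YAP/TAZ target genes, of which 16 were tested, 6 rose and 2 fell after TGF-β1 in NC cells, and 5 rose and 2 fell in knockdown cells. Of all genes tested, 8.57% rose and 6.77% fell in NC cells, and 8.5% rose and 7.61% fell in knockdown cells. This list and that of Hippo pathway regulators below were chosen with earlier results of these data known. Their counts are therefore not an independent test. Ctgf (Ccn2) and Cyr61 (Ccn1), both matricellular proteins, and Gadd45a, a stress response gene, were among those that rose in both. Cyr61 was at 99.2 to 151 CPM in NC and 180 to 325 CPM in NC + TGF-β1 (log2 fold change 0.85), and at 96.0 to 129 and 174 to 217 CPM in the knockdown cells (0.85). Gadd45a went from 5.63 to 8.60 CPM in the 3 NC libraries to 30.5 to 42.2 CPM after TGF-β1 (2.32) and rose by 1.90 on the log2 scale in knockdown cells, and Ctgf by 2.27 and 2.62. Nuak2, a kinase, rose in both (0.56 and 0.63), as did Ccdc80 (0.29 and 0.24). Foxf2 rose in NC cells (1.12) and was at 0.73 in knockdown cells, which did not pass, and its interaction did not pass either. Crim1, a transmembrane protein that binds BMPs, fell by 0.67 in NC and by 0.46 in knockdown cells, and Myof, named after its values were seen, fell by 0.34 and by 0.50. Without NC replicate 1, 5 of the 16 passed in NC cells. Without NC + TGF-β1 replicate 2 the values in NC cells were 1.72 for Ctgf and 0.52 for Cyr61, which still passed, and 0.84 for Foxf2, which did not (adjusted p = 0.0697 by edgeR with Benjamini-Hochberg adjustment). The median log2 fold changes of the list were 0.22 and 0.21.

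After knockdown, the same 16 genes had 2 that fell without TGF-β1, Crim1 (-0.59, adjusted p = 0.003) and Ccdc80 (-0.55, adjusted p = 0.00104), and 1 that fell with it, Ccdc80 (-0.60, adjusted p = 8.3e-04, all by edgeR with Benjamini-Hochberg adjustment), and none that rose. Of all genes tested, 2.54% fell and 0.901% rose without TGF-β1, and 1.22% fell and 0.33% rose with it. Ccdc80 encodes an extracellular matrix protein and was at 857 to 883 CPM in NC and 586 to 601 CPM in siPdcd5. Ctgf was at 36.3, 63.5 and 56.7 CPM in NC and at 23.0, 20.5 and 20.1 CPM in siPdcd5. These groups did not overlap, but the log2 fold change of -1.30 did not pass (adjusted p = 0.0881 by edgeR with Benjamini-Hochberg adjustment). Without NC + TGF-β1 replicate 2, a library outside this comparison that enters its estimate of the spread, the same difference of Ctgf passed (adjusted p = 0.00835 by edgeR with Benjamini-Hochberg adjustment). With TGF-β1, Ctgf was at 140, 410 and 204 CPM in NC cells and at 141, 68.0 and 181 CPM in knockdown cells. Here the groups overlapped and the difference of -0.95 on the log2 scale did not pass (adjusted p = 0.235 by edgeR with Benjamini-Hochberg adjustment), and without replicate 2 of NC + TGF-β1 it was -0.41. Cyr61 was -0.21 in both knockdown comparisons. Without NC + TGF-β1 replicate 2 the list had 5 genes called without and 2 with TGF-β1. The median log2 fold changes of the list were -0.26 without and -0.21 with TGF-β1.

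**Figure D4:**
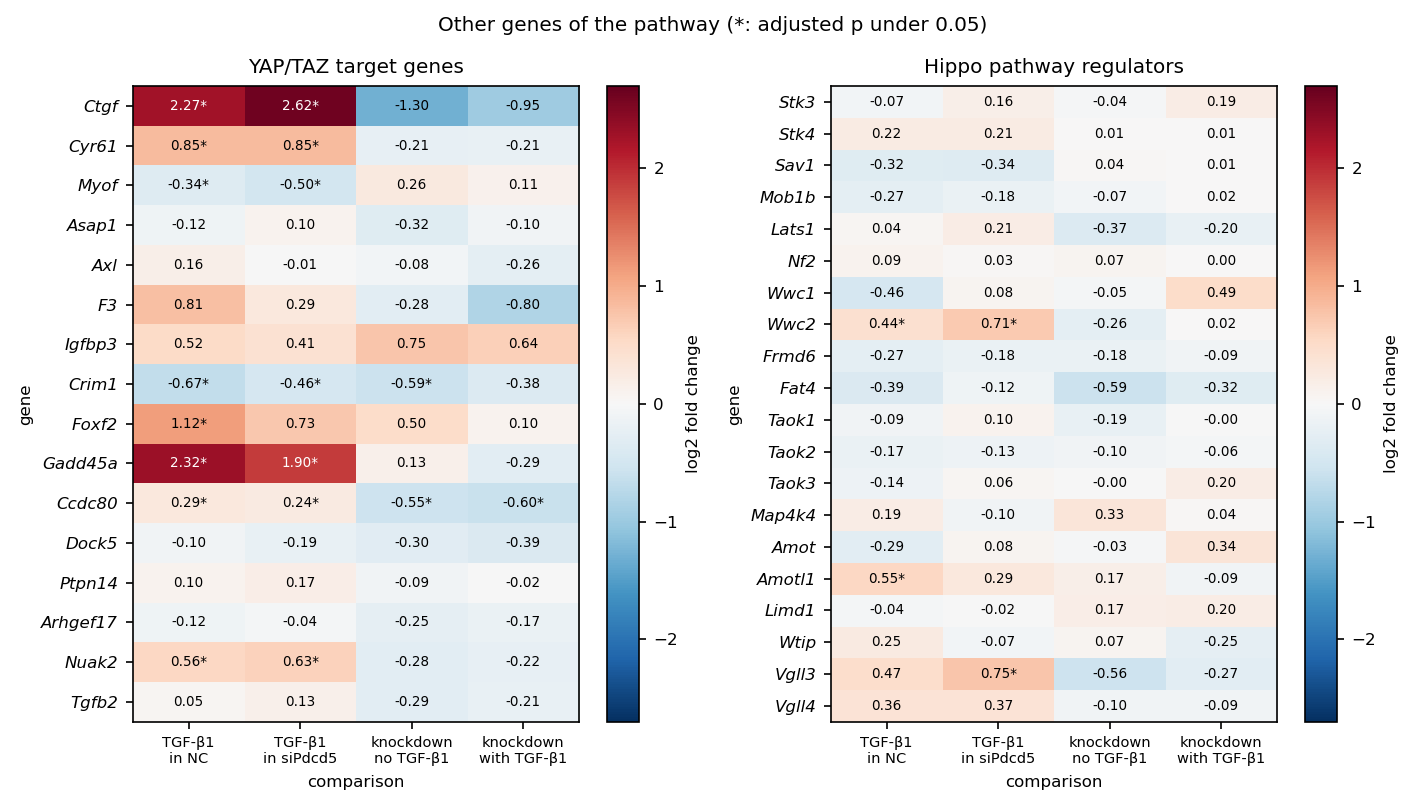
Log2 fold changes (colour and printed value) of the tested YAP/TAZ target genes (left, 16 genes) and Hippo pathway regulators (right, 20 genes) in 4 comparisons, with an asterisk for an adjusted p under 0.05. After TGF-β1 8 and 7 of the target genes passed, after knockdown 2 and 1, and the regulators that passed were Wwc2, Amotl1 and Vgll3 after TGF-β1.

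Of 24 regulators of the Hippo pathway, 20 were tested, and 2 rose and none fell after TGF-β1 in each kind of cell, where 8.57% and 8.5% of all genes tested rose and 6.77% and 7.61% fell, so the share of regulators that rose was near that of all genes. Wwc2, of the KIBRA family that activates LATS kinases, rose in both, by 0.44 in NC cells (294 to 343 CPM before, 392 to 451 CPM after) and by 0.71 in knockdown cells. Amotl1, an angiomotin like Amotl2, rose by 0.55 in NC cells, and Vgll3, which also binds TEADs, by 0.75 in knockdown cells. In the other kind of cells Amotl1 was at 0.29 and Vgll3 at 0.47, which did not pass (adjusted p = 0.105 and 0.093 by edgeR with Benjamini-Hochberg adjustment). In both genes and both kinds of cells every treated library was above every untreated one. With all 12 libraries no regulator passed in the interaction. In NC + TGF-β1 replicate 2, Amotl1 was at 528 CPM and Vgll3 at 107 CPM, beside 408 to 427 and 65.2 to 70.1 CPM in the other 2 libraries. Without that library the value in NC cells was 0.43 for Amotl1, which still passed, and 0.21 for Vgll3, which did not. In siPdcd5 replicate 1 Amotl1 was at 408 CPM, beside 317 to 319 CPM in the other 2 siPdcd5 libraries. Its rise in knockdown cells passed without siPdcd5 replicate 1 (0.43, adjusted p = 0.0167 by edgeR with Benjamini-Hochberg adjustment). It also passed without NC + TGF-β1 replicate 2 (0.29, adjusted p = 0.0325 by the same test). After knockdown none of the 20 passed edgeR's test without or with TGF-β1, where 2.54% and 1.22% of all genes tested fell and 0.901% and 0.33% rose. At an unadjusted p under 0.05 there were 5 without and 0 with TGF-β1, and DESeq2 called 2 without it. Without NC + TGF-β1 replicate 2 the number called was 4 after TGF-β1 in each kind of cell and 2 after knockdown without TGF-β1, without NC replicate 2 it was 1 after TGF-β1 in NC cells, and without siPdcd5 replicate 1 it was 1 after knockdown without TGF-β1. Vgll3 was at 56.3 to 59.5 CPM in NC and at 34.2 to 49.6 CPM in siPdcd5. This difference of -0.56 on the log2 scale did not pass with all 12 libraries (adjusted p = 0.119 by edgeR with Benjamini-Hochberg adjustment). It passed when NC + TGF-β1 replicate 2 or siPdcd5 replicate 1 was left out, with differences of -0.56 and -0.75.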

How the data were processed

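QuantSeq 3′ mRNA-seq reads were aligned by the authors with Bowtie2 to mm10 (build per the submitters' processing notes), and both unique and multiple alignments were counted per gene with Bedtools. The deposited values are whole, unnormalized read counts per gene symbol; quantile normalization in edgeR, named in the paper, is not in them. Annotation and strand use are not given in the sources used here. Counts of overlapping genes are therefore uncertain: Tead2 overlaps Cd37 on the other strand, Lats2 overlaps Gm49361 on the same strand, and Yap1, Wwtr1, Tead1 and Tead4 overlap non-coding genes or pseudogenes.

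Libraries were grouped by their labels. After edgeR's filter on low counts and TMM scaling, all 12 libraries entered 1 quasi-likelihood fit by group in edgeR 4.0.16 (R 4.3.3), with 0.132 as the square root of the common dispersion, and each comparison was a contrast of it. A gene was called at a Benjamini-Hochberg adjusted p under 0.05 over all 12425 genes tested. Likeness used log2 CPM with a prior count of 2. The scripts were tested on simulated data. The alternatives tried were factors from the upper quartile, limma 3.58.1 after quantile normalization, DESeq2 1.42.0, testing without the low-count filter, a minimum of 10 counts in all libraries, a fit of the 6 libraries of a comparison alone, a replicate block, and leaving out each library. Leaving out both libraries that stood apart was added after seeing the data.

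The 10 genes and the gene lists were chosen with earlier results of these data known. Besides the 10 genes and marker genes, those named were Pdcd5, Ctgf, Cyr61, per list and comparison up to 4 called genes with the largest changes, and the 2 genes most like each called gene. Summed marker levels were 3.21 to 7.66 CPM for other airway and alveolar epithelial cells (9 genes) and 8.48 to 14.0 CPM for endothelial cells and leukocytes (6 genes). Deviations of same-numbered libraries correlated on average at 0.11, 0.00, 0.02 and -0.14 in the 4 pairwise comparisons and not above 0.1 for every pair, so the numbers were not taken as pairs.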

Additional observations from a re-analysis of the deposited data

How the results depend on the processing

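Of the log2 fold changes of the 10 genes under all alternatives, 904 kept their direction and side of the threshold, 20 passed only under the alternative, 11 no longer passed (all Ajuba after knockdown without TGF-β1), and 55 changed sign, all in values that had not passed. The cause of these changes was not tested. Tead4 had the fewest counts of the 10 genes, 21 to 59 per library.

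The number of the 10 genes called after TGF-β1 in NC cells, 1, was 2 with upper-quartile factors, DESeq2 and quantile normalization, 6 without both libraries that stood apart, and 1 to 3 with each library left out. After knockdown without TGF-β1, 2 became 4 by DESeq2, 1 in the fit of 6 libraries, 6 without both libraries, and 1 to 4 with each left out, and after knockdown with TGF-β1, 0 became 1 by DESeq2 and 1 without both libraries. The replicate numbers could only be used as a block, since they were not shown to pair the libraries: with the replicate block 1 of the 10 genes passed after knockdown without TGF-β1, and the calls over all genes went from 1906 to 1687 and from 2002 to 1731 after TGF-β1 and from 427 to 301 and from 192 to 107 after knockdown.

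Of the target genes called, 2 after knockdown without TGF-β1 became 5 by DESeq2, 4 in the fit of 6 libraries, 4 without both libraries and 2 to 5 with each left out. With TGF-β1, 1 became 3 by DESeq2, 5 without both libraries and 1 to 2 with each left out, and after TGF-β1 in NC cells 8 became 5 to 8 with each left out. Of the regulators, 2 after TGF-β1 in NC cells became 4 by DESeq2, 6 without both libraries and 1 to 4 with each left out, 2 in knockdown cells became 4 with quantile normalization, 5 without both libraries and 2 to 4 with each left out, and 0 after knockdown without TGF-β1 became 2 by DESeq2, 1 with quantile normalization, 1 without a filter, 1 in the fit of 6 libraries, 3 without both libraries and 0 to 2 with each left out. In the interaction 1 regulator passed without both libraries. Over all genes, calls after knockdown with TGF-β1 went from 192 to 458 by DESeq2 and 44 in the fit of 6 libraries, and after knockdown without TGF-β1 from 427 to 714 by DESeq2.

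Wwtr1 after TGF-β1 in knockdown cells, at -0.00, was 0.0042 by DESeq2, 0.00070 without a filter and 0.0050 in the fit of 6 libraries. Tead2 after knockdown with TGF-β1 was 0.011 with upper-quartile factors, 0.022 with quantile normalization, 0.0042 without a filter, 0.0066 in the fit of 6 libraries and 0.0035 with the replicate block, and Lats2 in the interaction was 0.0099 with quantile normalization. Without both libraries, Tead2 and Tead4 after TGF-β1 in NC cells were 0.030 and 0.11, Lats2 after TGF-β1 in knockdown cells 0.10, Yap1 -0.17 after knockdown without and 0.13 with TGF-β1, Ankrd1 after knockdown with TGF-β1 0.0065, and the interaction 0.30 for Yap1 and 0.45 for Lats2.

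With each library left out in turn, the log2 fold changes after TGF-β1 in NC cells ranged from -0.33 to 0.13 for Yap1, -0.19 to 0.039 for Tead2, -0.40 to 0.12 for Tead4 and -0.34 to 0.10 for Lats2, and in knockdown cells from -0.033 to 0.031 for Wwtr1 and -0.23 to 0.11 for Lats2. After knockdown without TGF-β1 they ranged from -0.17 to 0.20 for Yap1, -0.068 to 0.20 for Tead2 and -0.029 to 0.16 for Tead3, and with TGF-β1 from -0.34 to 0.12 for Yap1, -0.11 to 0.13 for Tead2, -0.0019 to 0.35 for Tead3, -0.47 to 0.054 for Tead4 and -0.11 to 0.0018 for Ankrd1. The interaction ranged from -0.40 to 0.066 for Yap1, -0.19 to 0.065 for Tead2, -0.041 to 0.32 for Tead3, -0.055 to 0.28 for Amotl2 and -0.22 to 0.22 for Lats2.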
